A study of Rattus norvegicus with 12 samples.

Results

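The endoplasmic reticulum (ER) stress and amino acid stress programmes of rat aortic smooth muscle cells were followed through 38 genes, out of 22081 in the deposited table. The genes were taken by symbol as components or targets of the unfolded protein response and of the integrated stress response. The rule uses no measured value, but the genes and the further lists below were chosen with earlier results of these data known. Their counts beside shares of all genes are therefore descriptive. They fall into an ATF4 branch of 17 genes, made of 9 regulators and stress effectors and 8 enzymes of amino acid and folate metabolism, and an ER branch of 21 genes. The ER branch holds 4 sensors and transcription factors, 13 chaperones and folding factors and 4 genes of ER-associated degradation. All 38 were found in the table, and all 38 passed the filter on low counts that left 14825 genes for testing.

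As background, proteins that enter the secretory pathway fold in the ER, where the chaperone BiP (Hspa5) binds them and also holds the stress sensors PERK (Eif2ak3), IRE1 (Ern1) and ATF6 in check. When unfolded proteins accumulate, PERK phosphorylates the initiation factor eIF2, which slows most translation but raises that of ATF4, IRE1 splices the Xbp1 mRNA, and ATF6 is cut in the Golgi to release a transcription factor. Other kinases reach eIF2 and ATF4 in response to amino acid shortage, haem shortage or double-stranded RNA, so the ATF4 targets can move apart from the chaperone genes that ATF6 and XBP1 drive. ATF4 is controlled largely at translation and Xbp1 by splicing, neither of which a gene's total read count shows. In mouse heart, thrombospondins have been described inside the ER, where they bind ATF6.

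The cells were primary aortic smooth muscle cells of Wistar rats at passages 5 to 8, grown in medium with 20% serum and starved of serum for 24 h on elastomer plates before the experiment. The 4 groups, of 3 libraries each, were wild type (WT) static, WT stretched, Tsp1 knockout (KO) static and KO stretched, and stretch was uniaxial and cyclic at 20% strain and 1.0 Hz for a time the labels do not give. KO cells had received a plasmid with Cas9, GFP and a guide RNA against Thbs1, the thrombospondin-1 gene, were sorted for GFP and were grown out from single cells. The number of clones is not stated and nothing says that WT cells were cloned, so a genotype difference cannot be told apart from a difference between clones. Whether the 3 libraries of a group are separate cultures is not stated either, so p-values may reflect technical spread alone. In bulk RNA, fewer cells of a type and less RNA per cell cannot be told apart.

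Thbs1 was read first as a check of the labels. On the CPM scale, exon reads as a share of the TMM-scaled library total, Thbs1 stood at 3183, 2708 and 2091 CPM in the WT static libraries and at 1704, 1556 and 1052 CPM in WT stretched ones. The KO static libraries gave 588, 637 and 443 CPM and the KO stretched ones 435, 419 and 283 CPM. Every KO library was below every WT library, in the direction of the labels, and transcripts of the edited gene were still counted. The log2 fold change of KO against WT was -2.26 ± 0.24 in static culture and -1.92 ± 0.24 under stretch, with false discovery rates (FDR) of 3.96e-05 and 1.29e-04. FDR here is the Benjamini-Hochberg adjusted p of edgeR's quasi-likelihood test over all 14825 genes, and a gene was called at FDR under 0.05.

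Depth ran from 16766965 to 38024110 exon reads per library, and the least read member in any library still had 220 reads. The libraries numbered 3 stood apart in all 4 groups: reads in introns made up 9.15% to 11.29% of their reads in genes, against 14.75% to 16.46% in those numbered 1 and 2. In KO stretched library 3 the share of exon reads that crossed a junction was 16.38%, against 28.07% to 29.84% elsewhere. Of all genes tested 50.1% differed between libraries numbered 3 and the others, 24.1% being higher and 26.0% lower in number 3, so the fit with the library number as a block is given beside member calls it changed. Nupr1, with 0.00944% of its reads mapped uniquely, and Aldh18a1, with 0%, are uncertain because the counting could split their reads with other copies. Ddit3 overlaps Mars in position and Syvn1 overlaps Mrpl49, and the strand setting of the counting is not stated.

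Levels differ widely among the members, judged per length of exon as deposited RPKM in WT static cells. Calr, the calcium-binding lectin chaperone calreticulin, read 488 ± 63.0 RPKM and Hsp90b1, the ER paralogue of HSP90 (GRP94), 247 ± 11.7 RPKM. Nupr1 was listed higher, from reads that are nearly all not unique. At the other end were Ern1 at 2.98 ± 0.465 RPKM, Dnajb9 at 5.27 ± 0.432 RPKM and Eif2ak3 at 5.68 ± 0.579 RPKM. The transcription factors Atf4 at 210 ± 26.5 RPKM and Atf5 at 207 ± 27.5 RPKM were in the range of the abundant chaperones, while their targets Trib3 (21.1 ± 4.98 RPKM) and Chac1 (18.6 ± 3.26 RPKM) were far lower. SDs are over 3 libraries.

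The Tsp1 KO cells held less RNA of most ATF4 branch genes than WT cells, with or without stretch. In the fit without the block, 1 of the 13 ER chaperones and folding factors was called in static culture and 0 under stretch. In static culture 10 of the 17 ATF4 branch genes were lower in KO cells and 2 were higher, and under stretch 12 were lower and the same 2 higher. The median log2 fold change of the branch was -0.58 in static culture and -0.61 under stretch. The ER branch had 3 of 21 genes lower in static culture and 2 under stretch, with none higher and medians of -0.11 and -0.10. Over all genes tested the medians were 0.01 and -0.00.

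Taking all 38 together, 13 were lower and 2 higher in static culture, where 8.66% of all tested genes were lower and 12.1% higher. Under stretch 14 were lower and 2 higher, against 8.73% and 11.9% of all tested genes. With the library number as a block, 21 members were lower in static culture and 18 under stretch, against 17.8% and 18.3% of all genes, and 2 were higher in each, against 19.8% and 19%. The block added Sesn2, Phgdh, Psph, Atf6, Ern1, Xbp1, Hspa5 and Creld2 to the static calls, and Atf6, Xbp1, Hspa5 and Hyou1 to those under stretch. From the libraries numbered 1 and 2 alone, 20 members were lower in static culture and 18 under stretch, and 2 higher in each. That fit called 4739 and 4985 of all genes in either direction, where the fit of all libraries without the block called 3085 and 3056. The libraries of the genotypes did not overlap for 18 members in static culture (16 lower and 2 higher in KO cells) and for 19 under stretch (17 and 2). Of all tested genes, 15.9% were apart and lower and 18.9% apart and higher in static culture, and 15.4% and 18.2% under stretch. The plot of genotype differences shows the members by role.

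**Figure D1:**
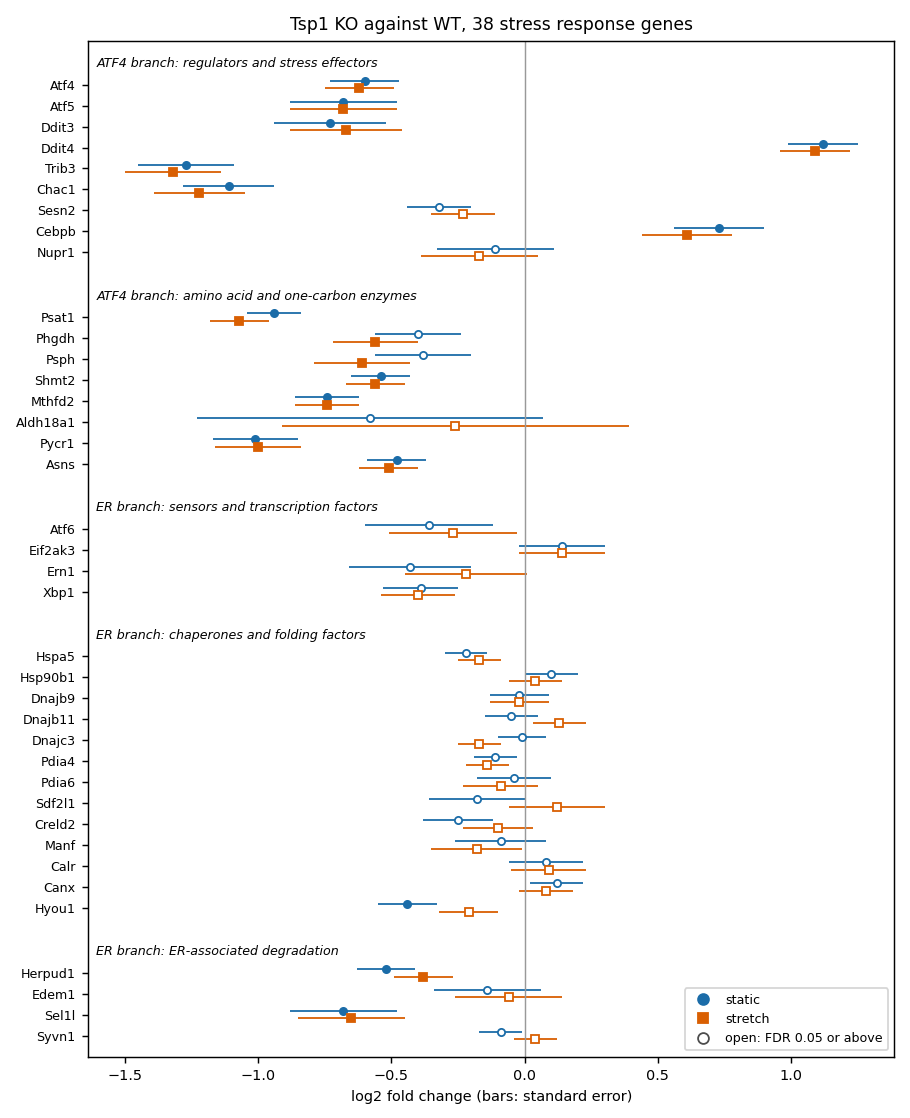
Log2 fold change of KO against WT (x axis, bars are standard errors) for the 38 genes in static culture (circles) and under stretch (squares), filled where FDR was under 0.05. Most ATF4 branch points lie left of 0, with Trib3 lowest at -1.27 and -1.32, Ddit4 stands right at 1.12 and 1.09, and the chaperones lie near 0.

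Among the regulators, Atf4, which encodes the transcription factor at the centre of the integrated stress response, was lower in KO cells. Its gene lies on chromosome 7 from 121480723 to 121482772 in Rnor_6.0, the build of all gene positions below that are given without another. Atf4 read 369, 380 and 431 CPM in WT static and 414, 413 and 481 CPM in WT stretched cells, against 242, 234 and 303 CPM in KO static and 269, 258 and 326 CPM in KO stretched cells. No KO library reached the lowest WT library of its condition. The log2 fold change was -0.60 ± 0.13 (SE) in static culture (FDR 0.00633) and -0.62 ± 0.13 (FDR 0.00513) under stretch.

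Trib3, a pseudokinase that binds AKT and is a textbook target of ATF4 and CHOP, had the lowest log2 fold changes of the 38. It lies on chromosome 3 from 147813473 to 147819571. Trib3 read 53.2, 44.6 and 66.2 CPM in WT static cells and 20.4, 18.9 and 28.6 CPM in KO static cells, and 40.6, 35.6 and 42.6 CPM against 16, 13.9 and 17.7 CPM under stretch. The genotypes were far apart in both conditions, at -1.27 ± 0.18 (FDR 4.01e-04) and -1.32 ± 0.18 (FDR 3.05e-04) on the log2 scale. Chac1, an enzyme that degrades glutathione and another ATF4 target, read 37.2, 35 and 45.1 CPM in WT static and 18.1, 14.1 and 22.3 CPM in KO static cells. Under stretch the WT libraries gave 37.7, 34.3 and 42.7 CPM and the KO libraries 16.3, 14.3 and 18.6 CPM. Its fold changes were -1.11 ± 0.17 (FDR 7.16e-04) and -1.22 ± 0.17 (FDR 3.27e-04), again with no overlap of the genotypes.

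Atf5, a relative of Atf4 that is also under translational control, and Ddit3, which encodes the transcription factor CHOP, were lower as well, on less firm calls. Atf5 read 271, 269 and 315 CPM in WT static and 169, 140 and 226 CPM in KO static cells, and 309, 277 and 331 CPM against 172, 155 and 246 CPM under stretch. Its log2 fold change was -0.68 ± 0.20 in static culture (FDR 0.0295) and -0.68 ± 0.20 under stretch (FDR 0.0297). The genotypes did not overlap, but the static call was lost without WT static library 1, 2 or 3 or KO static library 1 or 2 (FDR 0.0582 to 0.113), and the stretch call without WT stretched library 1 or 3 or KO stretched library 1 or 2 (FDR 0.0770 to 0.115). Ddit3 read 69.7, 70.4 and 79.6 CPM in WT static and 42.0, 32.7 and 57.7 CPM in KO static cells, and 64.2, 59.6 and 87.9 CPM against 40.6, 41.0 and 51.7 CPM under stretch. Its log2 fold changes were -0.73 ± 0.21 (FDR 0.0260) and -0.67 ± 0.21 (FDR 0.0401). The static call was lost without the same 5 libraries as for Atf5 (FDR 0.0546 to 0.0938). The stretch call was lost without any of 8 libraries, namely the 3 WT static ones, WT stretched 1 and 3, KO static 1, and KO stretched 1 and 2 (FDR 0.0517 to 0.143).

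Ddit4 and Cebpb went the other way. Ddit4, also called REDD1, an inhibitor of the growth kinase complex mTORC1 that ATF4 and other stress factors induce, lies on chromosome 20 from 29509289 to 29511382. It read 21.8, 24.2 and 22.5 CPM in WT static and 49.2, 45.6 and 53.9 CPM in KO static cells, and 16.9, 24.0 and 23.2 CPM against 42.5, 44.4 and 49.9 CPM under stretch. Each KO library was above each WT library, at 1.12 ± 0.13 (FDR 9.55e-05) and 1.09 ± 0.13 (FDR 1.13e-04) on the log2 scale. Cebpb, a transcription factor that pairs with ATF4 and CHOP, read 72.6, 65.0 and 78.3 CPM in WT static and 115, 100 and 144 CPM in KO static cells. Under stretch the WT libraries gave 60.0, 59.7 and 80.1 CPM and the KO libraries 85.8, 104 and 115 CPM. The genotypes did not overlap, at 0.73 ± 0.17 (FDR 0.00808) and 0.61 ± 0.17 (FDR 0.0218), and the stretch call was lost without WT stretched library 1 or 2 or KO stretched library 2 or 3 (FDR 0.0646 to 0.140).

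The remaining regulators were not called. Sesn2, a leucine sensor that restrains mTORC1, had a log2 fold change of -0.32 ± 0.12 in static culture (FDR 0.0886) and -0.23 ± 0.12 under stretch (FDR 0.235), and with the block its static FDR was 0.0168. Nupr1, a small chromatin protein induced by stress, had -0.11 ± 0.22 (FDR 0.824) and -0.17 ± 0.22 (FDR 0.674), from reads that were nearly all mapped to more than 1 place. The plot of ATF4 branch levels shows the single libraries.

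**Figure D2:**
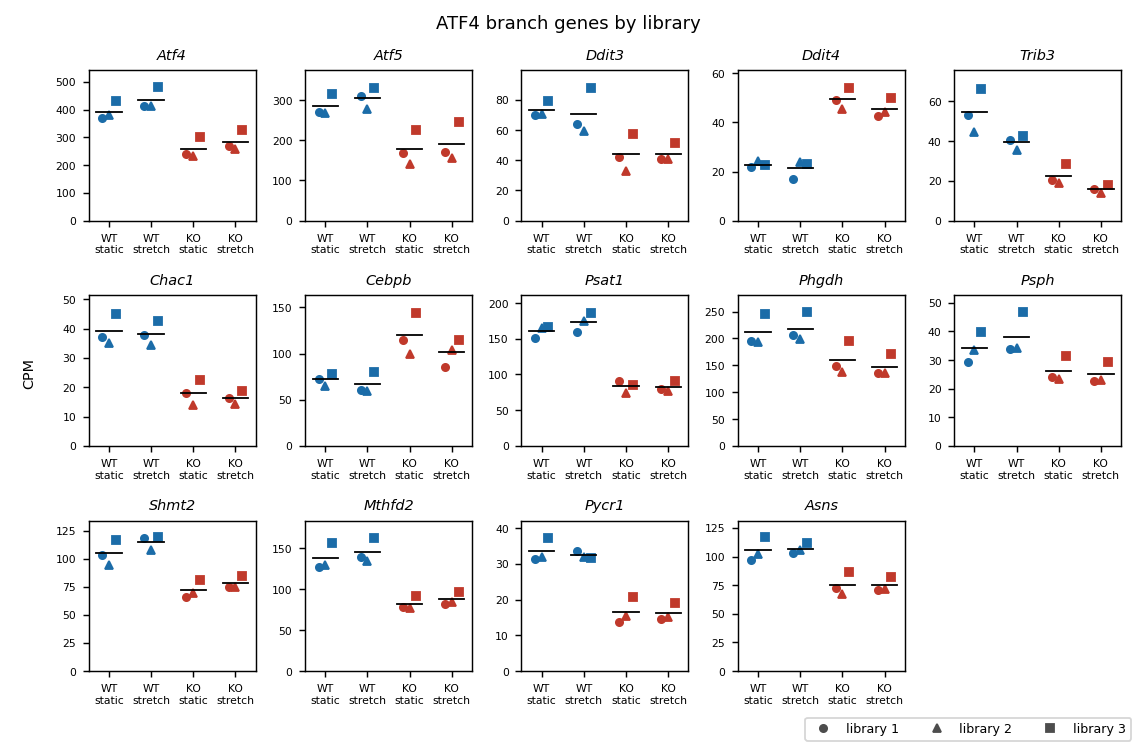
CPM (y axes, from 0) in each of the 12 libraries for genes of the ATF4 branch, by group on the x axis, with circles, triangles and squares for libraries numbered 1, 2 and 3 and lines for group means. Atf4, Trib3, Chac1, Psat1, Pycr1 and Mthfd2 sit lower in both KO groups than in both WT groups, while Ddit4 sits higher.

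Of the 8 enzyme genes, 5 were called lower in KO static cells and 7 under stretch, and none higher. They build serine, glycine, proline and asparagine and feed folate metabolism in mitochondria. Psat1, the aminotransferase of serine synthesis, lies on chromosome 1 from 233124092 to 233145941. It read 151, 165 and 167 CPM in WT static and 91.1, 74.7 and 85.6 CPM in KO static cells, and 160, 175 and 186 CPM against 79.3, 77.4 and 91.3 CPM under stretch. The highest KO library was far below the lowest WT library, and the log2 fold changes were -0.94 ± 0.10 (FDR 5.22e-05) and -1.07 ± 0.11 (FDR 1.94e-05).

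The other steps of serine synthesis moved less. Phgdh, the dehydrogenase that opens the pathway, read 195, 193 and 246 CPM in WT static and 149, 137 and 195 CPM in KO static cells, and 206, 199 and 249 CPM against 135, 136 and 171 CPM under stretch. The genotypes overlapped in static culture and not under stretch. Its log2 fold change was -0.40 ± 0.16 in static culture (FDR 0.121, with the block 8.60e-05) and -0.56 ± 0.16 under stretch (FDR 0.0303). The stretch call was lost without WT stretched library 1 or 3 or KO stretched library 1 or 2 (FDR 0.0558 to 0.109).

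Psph, the phosphatase that releases serine, read 29.4, 33.5 and 39.7 CPM in WT static and 24.0, 23.5 and 31.3 CPM in KO static cells, and 33.8, 34.1 and 46.6 CPM against 22.6, 22.9 and 29.4 CPM under stretch. Here too the static groups overlapped, since KO library 3 at 31.3 CPM exceeded WT library 1 at 29.4 CPM, and the stretched groups did not. Its log2 fold change was -0.38 ± 0.18 in static culture (FDR 0.181, with the block 7.05e-04) and -0.61 ± 0.18 under stretch (FDR 0.0300). That call was lost without WT stretched library 3 or KO stretched library 1 or 2 (FDR 0.106 to 0.110).

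Shmt2 and Mthfd2, mitochondrial enzymes that take a carbon unit from serine into folate, were both lower. Shmt2 read 103, 94.1 and 117 CPM in WT static and 65.9, 69.6 and 81.4 CPM in KO static cells, and 118, 108 and 119 CPM against 74.6, 75.0 and 84.3 CPM under stretch. Mthfd2 read 127, 130 and 157 CPM and 78.4, 77.7 and 91.7 CPM in the static groups, and 140, 135 and 163 CPM and 81.5, 84.1 and 97.1 CPM in the stretched ones. Neither gene had overlapping genotypes. Log2 fold changes were -0.54 ± 0.11 and -0.56 ± 0.11 for Shmt2 (FDR 0.00455 and 0.00337). For Mthfd2 they were -0.74 ± 0.12 and -0.74 ± 0.12 (FDR 9.93e-04 and 9.93e-04).

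Pycr1, the mitochondrial reductase that completes proline synthesis, lies on chromosome 10 from 109818177 to 109821807. It read 31.4, 32.0 and 37.1 CPM in WT static and 13.7, 15.3 and 20.7 CPM in KO static cells, and 33.7, 32.0 and 31.6 CPM against 14.5, 15.1 and 19.1 CPM under stretch. The genotypes were apart, at -1.01 ± 0.16 (FDR 6.99e-04) and -1.0 ± 0.16 (FDR 7.28e-04) on the log2 scale. Asns, asparagine synthetase, read 97.3, 102 and 117 CPM in WT static and 72.2, 67.2 and 86.8 CPM in KO static cells, and 103, 106 and 112 CPM against 70.7, 71.8 and 81.8 CPM under stretch. The groups did not overlap, and the fold changes were -0.48 ± 0.11 (FDR 0.0103, or 0.0504 without KO static library 2) and -0.51 ± 0.11 (FDR 0.00703). Aldh18a1, which makes the proline precursor, ranged from 9.0 to 176 CPM over libraries with no uniquely mapped read, and no direction is given for it.

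Promoters are shown for members called in edgeR without the block that hold a motif of the stress factors. Those of Asns, a gene known as an ATF4 target, and, further on, of Hspa5 are shown in any case. RefSeq promoters of the build GRCr8, from 250 bases before to 50 after the gene start, were found for 33 of the 38 members and not for Atf6, Ern1, Pdia6, Manf and Aldh18a1. The composite site to which ATF4 and a C/EBP partner bind was searched on both strands as TGATGNAA, where N is any base. It stood in the promoters of 4 of the 16 ATF4 branch genes with one, Chac1, Nupr1, Pycr1 and Trib3, and in 1 of 17 ER branch genes, Herpud1. Of all 33469 promoters 3.98% hold it. Capitals mark the match, and in Trib3, Chac1 and Herpud1 it reads on the opposite strand.
Trib3: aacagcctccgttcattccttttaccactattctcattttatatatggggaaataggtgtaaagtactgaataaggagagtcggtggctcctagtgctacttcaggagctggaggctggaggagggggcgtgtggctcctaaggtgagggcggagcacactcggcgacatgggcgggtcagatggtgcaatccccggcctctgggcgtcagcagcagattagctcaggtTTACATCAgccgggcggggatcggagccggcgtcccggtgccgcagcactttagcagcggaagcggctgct
Chac1: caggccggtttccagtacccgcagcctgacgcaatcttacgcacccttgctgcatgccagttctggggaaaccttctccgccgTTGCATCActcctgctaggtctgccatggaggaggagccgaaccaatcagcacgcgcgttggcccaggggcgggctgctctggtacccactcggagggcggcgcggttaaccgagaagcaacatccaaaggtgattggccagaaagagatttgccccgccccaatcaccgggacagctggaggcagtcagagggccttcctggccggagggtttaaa
Pycr1: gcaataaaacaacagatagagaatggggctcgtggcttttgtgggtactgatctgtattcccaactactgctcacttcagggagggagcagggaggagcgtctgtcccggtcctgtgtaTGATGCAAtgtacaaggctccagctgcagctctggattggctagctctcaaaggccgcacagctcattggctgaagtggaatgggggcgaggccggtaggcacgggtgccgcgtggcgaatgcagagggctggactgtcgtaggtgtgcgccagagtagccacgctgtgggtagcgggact
Asns: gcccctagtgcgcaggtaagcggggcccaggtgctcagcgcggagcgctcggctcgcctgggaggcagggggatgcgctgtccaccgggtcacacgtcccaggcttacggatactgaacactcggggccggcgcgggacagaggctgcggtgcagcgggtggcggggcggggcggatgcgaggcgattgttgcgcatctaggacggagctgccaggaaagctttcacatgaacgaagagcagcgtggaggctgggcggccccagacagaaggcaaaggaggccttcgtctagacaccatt
Herpud1: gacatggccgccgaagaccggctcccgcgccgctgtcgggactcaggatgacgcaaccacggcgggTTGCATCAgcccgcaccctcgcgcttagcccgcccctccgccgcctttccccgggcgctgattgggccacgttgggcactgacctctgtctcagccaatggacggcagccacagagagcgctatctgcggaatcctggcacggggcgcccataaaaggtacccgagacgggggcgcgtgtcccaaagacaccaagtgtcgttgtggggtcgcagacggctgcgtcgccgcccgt
These windows lie at chr3:161275484-161275783 (minus strand), chr3:126795881-126796180 (plus), chr10:106420763-106421062 (minus), chr4:36769366-36769665 (minus) and chr19:10614658-10614957 (minus) in GRCr8. Counted from the gene start, the match begins at base -21 in Trib3, -131 in Pycr1, -167 in Chac1 and -184 in Herpud1. The Asns window holds none of the motifs searched, which says only that these letters are absent from it. A match is a description of the sequence and not a binding site. Further elements of the stress factors were not searched and are not marked, so these windows, that of Herpud1 included, may hold others.

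Other gene lists tied to ATF4 were counted beside the 38, against the same 8.66% and 8.73% of all genes lower in KO cells. Of 18 aminoacyl-tRNA synthetases, which charge tRNAs with amino acids, 10 were lower and 1 higher in static culture, and 12 lower and none higher under stretch, with medians of -0.36 and -0.42. Eprs, for glutamate and proline, was at 795 ± 64.8 CPM in WT static and 460 ± 34.7 CPM in KO static cells (SD, n = 3). Its log2 fold change was -0.79 ± 0.12 in static culture (FDR 6.85e-04) and -0.87 ± 0.12 under stretch (FDR 3.09e-04). Aars, for alanine, had -0.50 ± 0.08 in static culture (FDR 8.05e-04) and Wars, for tryptophan, -0.51 ± 0.09 under stretch (FDR 0.00143). With the block 13 of the 18 were lower and 3 higher in each condition.

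Of the amino acid transporters that could be tested, 6 of 10 were lower and 1 higher in static culture and 7 were lower and none higher under stretch. Slc7a5, the light chain of the large neutral amino acid exchanger LAT1, was at 195 ± 17.6 CPM in WT static and 93.0 ± 6.99 CPM in KO static cells (SD, n = 3). Its log2 fold change was -1.07 ± 0.11 (FDR 3.17e-05) and -1.14 ± 0.11 under stretch (FDR 1.92e-05). The glutamine transporter Slc1a5 had -0.99 ± 0.09 and -1.20 ± 0.09 (FDR 9.76e-06 and 2.32e-06). The glycine transporter Slc6a9 had -1.01 ± 0.10 and -0.99 ± 0.10 (FDR 1.73e-05 and 2.12e-05).

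A mixed list of 18 further genes described as targets of ATF4 or CHOP did not share a direction. Of these, 7 were lower and 3 higher in static culture, and 8 lower and 4 higher under stretch. With the block the counts were 9 and 6 in static culture and 10 and 6 under stretch. Gdf15, a stress cytokine, was higher, at 1.55 ± 0.234 CPM in WT static and 20.6 ± 2.68 CPM in KO static cells (log2 fold change 3.72 ± 0.24, FDR 7.32e-07). Aldh1l2, a mitochondrial folate enzyme next in function to Mthfd2, was also higher, from 10.2 ± 0.760 to 52.2 ± 1.68 CPM (2.36 ± 0.11, FDR 6.61e-08). Under stretch Gdf15 had 3.87 ± 0.23 and Aldh1l2 2.28 ± 0.11, while Vldlr, a lipoprotein receptor, was lower at -2.36 ± 0.15 (FDR 6.20e-07). The peptide hormone gene Adm2 was at 1.05 ± 0.0524 CPM in WT static and 0.0399 ± 0.0134 CPM in KO static cells, too few reads for a fold.

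Upstream of ATF4, kinases and phosphatase subunits set the phosphorylation of eIF2. Of 12 such genes, 1 was called in static culture and 2 under stretch. Eif2ak2, the kinase PKR that double-stranded RNA activates and interferon induces, was higher, at 0.95 ± 0.24 in static culture (FDR 0.0145) and 0.99 ± 0.24 under stretch (FDR 0.0113). Both calls were open to single libraries, at FDR 0.0629 to 0.0667 without WT static library 3 or KO static library 1 and 0.0517 without KO stretched library 1. With the block 5 and 6 of the 12 were called, where it called 37.6% and 37.3% of all genes. The plot of shares sets these lists side by side.

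**Figure D3:**
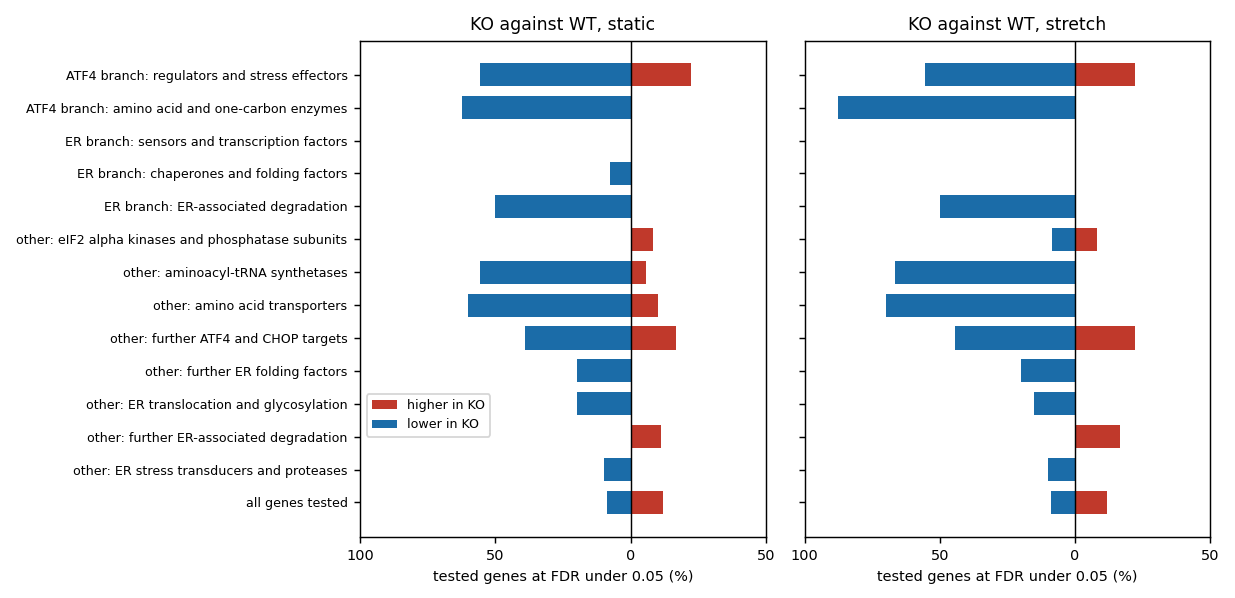
Share of each gene list, in percent of its tested genes (x axis), that was lower or higher in KO cells at FDR under 0.05, for static culture and stretch, with all tested genes for comparison. The 8 amino acid and folate enzymes, the aminoacyl-tRNA synthetases and the amino acid transporters reach shares lower in KO above those of the ER lists and above the 8.66% and 8.73% of all genes.

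In the ER branch, the sensors and transcription factors were not called in either condition. Xbp1, whose spliced mRNA encodes the factor that drives chaperone and degradation genes, came nearest. It read 69.4, 70.7 and 78.3 CPM in WT static and 52.0, 50.7 and 64.1 CPM in KO static cells, and 76.2, 73.3 and 92.6 CPM against 56.4, 55.3 and 71.4 CPM under stretch. All KO libraries were below all WT libraries of their condition, at -0.39 ± 0.14 (FDR 0.0694) and -0.40 ± 0.14 (FDR 0.0605), and with the block both were called (FDR 1.45e-04 and 1.06e-04).

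Atf6, the sensor that is itself cut into a transcription factor, had -0.36 ± 0.24 in static culture and -0.27 ± 0.24 under stretch (FDR 0.368 and 0.524). Within every library number it was below WT, and with the block it was lower at FDR 6.93e-04 and 0.00449. Ern1, the kinase and nuclease IRE1, had -0.43 ± 0.23 and -0.22 ± 0.23 (FDR 0.253 and 0.605), with a static FDR of 0.0218 under the block. Eif2ak3, which encodes the kinase PERK, had 0.14 ± 0.16 and 0.14 ± 0.16 (FDR 0.636 and 0.629).

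Hspa5, the gene of BiP, is a common readout of ER stress. It lies on chromosome 3 from 13838304 to 13842762. It read 635, 664 and 654 CPM in WT static and 561, 550 and 571 CPM in KO static cells, and 753, 747 and 819 CPM against 695, 655 and 716 CPM under stretch. The genotypes did not overlap, but the difference was small, at -0.22 ± 0.08 (FDR 0.0658) and -0.17 ± 0.08 (FDR 0.158). With the block it was lower at FDR 0.00575 in static culture and 0.0241 under stretch.

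Of the 13 chaperones and folding factors only Hyou1 was called, and in static culture alone. Hyou1 encodes the large chaperone that exchanges the nucleotide of BiP. It read 229, 199 and 203 CPM in WT static and 155, 163 and 148 CPM in KO static cells, and 216, 207 and 170 CPM against 188, 168 and 159 CPM under stretch. The stretched groups overlapped, since KO library 1 at 188 CPM exceeded WT library 3 at 170 CPM. Log2 fold changes were -0.44 ± 0.11 (FDR 0.0145) and -0.21 ± 0.11 (FDR 0.243, with the block 0.0348). The static call was lost without WT static library 1 or KO static library 3 (FDR 0.0516 to 0.0647).

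The other 11 chaperones and folding factors lay between -0.25 and 0.12 in static culture and between -0.18 and 0.13 under stretch on the log2 scale. They are Hsp90b1 and the lectin chaperones Calr and Canx, the BiP cochaperones Dnajb9, Dnajb11, Dnajc3 and Sdf2l1, the disulfide isomerases Pdia4 and Pdia6, and the secreted stress proteins Creld2 and Manf. Hsp90b1 was at 1062 ± 76.0 CPM in WT static and 1134 ± 115 CPM in KO static cells (SD, n = 3). Calr was at 1218 ± 105 and 1287 ± 157 CPM and Pdia4 at 470 ± 20.9 and 436 ± 16.9 CPM. None of the 11 was called in edgeR without the block, and the libraries of the genotypes overlapped for each except Dnajc3 under stretch. There its KO libraries, at 68.4, 68.5 and 73.2 CPM, lay below the WT ones at 77.2, 79.9 and 78.9 CPM. The log2 fold change of Dnajc3 was -0.17 ± 0.08 (FDR 0.213). Of the 11, Creld2 was called under the block in static culture, at -0.25 ± 0.13 (FDR 0.228, with the block 0.0259).

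ER-associated degradation draws misfolded proteins out of the ER to the proteasome, and 2 of its 4 members were lower in both conditions. Herpud1, which assembles the membrane ligase, read 100, 87.2 and 105 CPM in WT static and 60.7, 65.0 and 78.1 CPM in KO static cells, and 91.3, 84.6 and 86.7 CPM against 68.7, 63.1 and 69.5 CPM under stretch. The genotypes did not overlap, at -0.52 ± 0.11 (FDR 0.00493) and -0.38 ± 0.11 (FDR 0.0262). The stretch call was lost without any WT stretched library or KO stretched library 1 or 2 (FDR 0.0517 to 0.102).

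Sel1l, the adaptor of the ligase HRD1, read 265, 249 and 211 CPM in WT static and 162, 167 and 123 CPM in KO static cells, and 255, 254 and 172 CPM against 165, 163 and 107 CPM under stretch. Within each condition every KO library was below every WT library, although the libraries numbered 3 were low in both. The log2 fold changes were -0.68 ± 0.20 (FDR 0.0356) and -0.65 ± 0.20 (FDR 0.0446). The static call was lost without WT static library 1 or 2 or any KO static library (FDR 0.0546 to 0.122). The stretch call was lost without any of 10 libraries, all but WT stretched 3 and KO static 3 (FDR 0.0515 to 0.147). Syvn1, HRD1 itself, and Edem1, a lectin that picks out glycoproteins for degradation, were not called, at -0.09 ± 0.08 and 0.04 ± 0.08 for Syvn1 and -0.14 ± 0.20 and -0.06 ± 0.20 for Edem1.

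**Figure D4:**
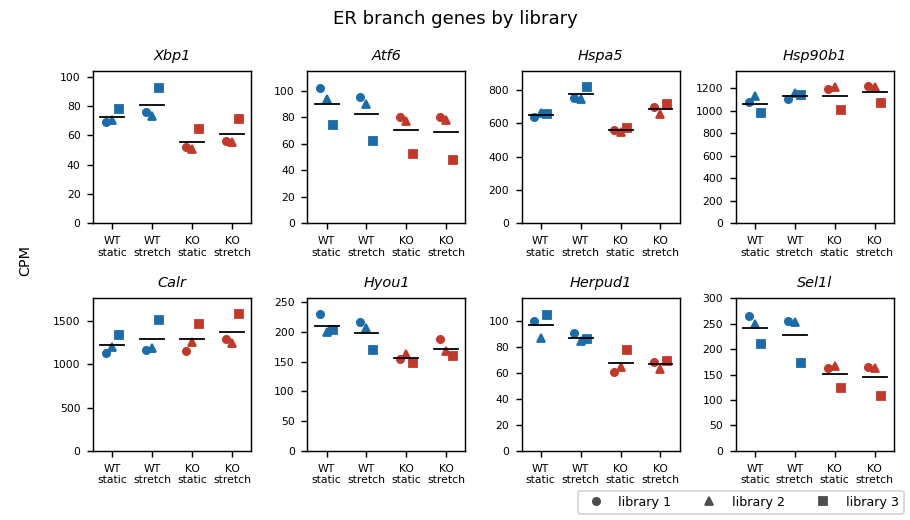
CPM (y axes, from 0) in each of the 12 libraries for genes of the ER branch, by group on the x axis, with circles, triangles and squares for libraries numbered 1, 2 and 3 and lines for group means. Sel1l and Herpud1 sit lower in the KO groups, Hspa5 sits higher in the stretched group than in the static group of each genotype, and Hsp90b1 and Calr overlap between genotypes.

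The promoters of the ER branch carried a different motif. The ER stress response element, to which ATF6 binds together with NF-Y, was searched on both strands as CCAAT, 9 bases of any kind and CCACG. It stood in 7 of the 17 ER branch promoters, those of Hspa5, Hsp90b1, Calr, Canx, Creld2, Dnajc3 and Xbp1, and in 0 of 16 of the ATF4 branch. Of all 33469 promoters 0.0657% hold it. The members were taken as components or targets of these responses, so this share describes the list and is not a test. Of these 7, none was called in edgeR without the block, and Xbp1, Hspa5 and Creld2 were lower in KO static cells with it. DESeq2 called Hspa5 lower in static culture (adjusted p 0.00728) and Xbp1 lower under stretch (0.0444). The core of another element that ATF6 and XBP1 bind, TGACGTGG, stood in 1 of 17 ER branch promoters, that of Hyou1, in 0 of 16 of the ATF4 branch, and in 0.595% of all. Both are shown with the match in capitals, which reads on the strand of the gene.
Hspa5: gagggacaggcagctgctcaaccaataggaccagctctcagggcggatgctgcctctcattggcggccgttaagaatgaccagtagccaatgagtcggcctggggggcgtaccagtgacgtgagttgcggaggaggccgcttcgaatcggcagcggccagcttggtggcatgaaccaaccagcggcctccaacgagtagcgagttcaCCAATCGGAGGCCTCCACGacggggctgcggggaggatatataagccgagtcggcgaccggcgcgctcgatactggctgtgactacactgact
Hyou1: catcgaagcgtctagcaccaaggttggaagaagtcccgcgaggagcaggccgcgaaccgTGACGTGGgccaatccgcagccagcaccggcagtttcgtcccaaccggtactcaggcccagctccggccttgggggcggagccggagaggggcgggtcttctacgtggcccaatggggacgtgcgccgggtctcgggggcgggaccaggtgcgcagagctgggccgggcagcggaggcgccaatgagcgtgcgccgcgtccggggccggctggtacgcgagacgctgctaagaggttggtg
The windows lie at chr3:38452766-38453065 and chr8:53602632-53602931 (plus strands) in GRCr8, and the matches begin at base -43 in Hspa5 and -191 in Hyou1. A further start listed for Hyou1 has an overlapping window without the core.

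Other ER genes outside the 38 were counted by list beside the shares of all genes. Of all genes 8.66% and 8.73% were lower, and with the block 17.8% and 18.3%, in static culture and under stretch, and 12.1% and 11.9% were higher, with the block 19.8% and 19%. Of 25 further folding factors 5 were lower in each condition and none higher, with medians of -0.02 and -0.01. Serpinh1, the collagen chaperone HSP47, was at 3532 ± 307 CPM in WT static and 1737 ± 191 CPM in KO static cells (SD, n = 3), with log2 fold changes of -1.02 ± 0.12 and -0.99 ± 0.12 (FDR 7.92e-05 and 1.04e-04). Pdia5, a disulfide isomerase, had -0.68 ± 0.12 and -0.59 ± 0.12, and Fkbp14, a prolyl isomerase that acts on collagen, -0.58 ± 0.09 and -0.58 ± 0.09. Of 18 further degradation genes 2 were higher in static culture and 3 under stretch, and none lower, among them Edem2 at 0.60 ± 0.11 and 0.73 ± 0.11 (FDR 0.00272 and 7.09e-04). With the block 5 of these were higher in each condition, and 0 and 3 lower, and of the folding factors 6 and 9 were lower and 2 and 3 higher.

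Of 10 ER stress transducers and proteases only Creb3l1 was called, and with the block 2 more in static culture and 3 more under stretch, all higher. It encodes the ER membrane factor OASIS, which drives collagen genes in mouse bone. Creb3l1 was at 192 ± 24.8 CPM in WT static and 50.4 ± 5.50 CPM in KO static cells, with log2 fold changes of -1.93 ± 0.12 and -1.80 ± 0.12 (FDR 6.28e-07 and 9.52e-07). Of 20 genes of ER translocation and glycosylation, 4 were lower in static culture and 3 under stretch, and none higher, with medians of -0.06 and -0.10. With the block the counts were 5 lower and 1 higher, and 7 lower and none higher.

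Reads that fell in introns, a readout from the same libraries that was chosen after the exon results had been seen, were tested in the same model over 15577 genes. Introns are present in unspliced RNA, so these reads follow new transcripts more closely than exon reads do. Cebpb, whose span is all exon, and Sdf2l1, with 2 to 16 intron reads per library, could not be tested. Of the other 36 members, 9 were lower and 1 higher in KO static cells, where 2.92% of all genes were lower and 4.78% higher. Under stretch 11 were lower and 0 higher, against 3.26% and 5.62%. All 14 members called on exon reads in static culture that could be tested had the same sign on intron reads, and 8 of them were called there too. Under stretch these counts were 15, 15 and 9. Both readouts come from the same libraries, and how often all genes called on exon reads keep their sign or call was not counted.

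The ATF4 branch supplied most of the intron calls. Pycr1 had an intron log2 fold change of -1.47 ± 0.34 in static culture and -2.23 ± 0.35 under stretch, Trib3 had -1.37 ± 0.25 and -1.48 ± 0.25, and Shmt2 -0.70 ± 0.14 and -0.98 ± 0.14. All of these had an FDR under 0.05, as did Chac1, Psat1, Mthfd2 and Asns in both conditions. Atf4 itself had -0.45 ± 0.33 in static culture (FDR 0.526) and -1.25 ± 0.33 under stretch (FDR 0.0367), from 43 to 262 intron reads per library. In the ER branch Herpud1 was lower on intron reads in static culture (-0.62 ± 0.16, FDR 0.0326). Under stretch Xbp1 (-1.07 ± 0.29, FDR 0.0407) and Creld2 (-0.79 ± 0.21, FDR 0.0326) were lower, with exon reads of Creld2 at -0.10 ± 0.13. Atf6 alone was called on intron reads, without the block, in the direction opposite to its exon reads. Its intron reads were higher in KO static cells, at 0.53 ± 0.13 (FDR 0.0245), while its exon reads were at -0.36 ± 0.24. Under stretch its intron value was 0.41 ± 0.13 (FDR 0.0718, with the block 0.00947). Why they parted was not tested. With the block 11 members were lower and 3 higher on intron reads in static culture, against 7.38% and 8.69% of all genes, and 11 and 2 under stretch, against 7.25% and 10.3%. Fold changes and standard errors that follow are those of the fit without the block. Beside Atf6, the block added Ddit3 (-0.35 ± 0.25, FDR 0.514, with the block 0.0486) and Phgdh (-0.47 ± 0.15, FDR 0.0826, with the block 0.0323) as lower in static culture. It added Eif2ak3 (0.38 ± 0.17, FDR 0.240, with the block 0.0445) and Dnajc3 (0.41 ± 0.19, FDR 0.277, with the block 0.0384) as higher there. Under stretch the block added Eif2ak3 as higher (0.44 ± 0.17, FDR 0.141, with the block 0.0174).

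With stretch, no member differed from static culture past the threshold in either genotype in edgeR without the block. The members whose stretched and static libraries did not overlap were Hspa5 and Dnajc3 (higher) and Trib3 (lower) in both genotypes, and in KO cells also Dnajb9 (higher) and Sesn2 (lower). The counts were 0 of 38 in WT and in KO cells, where 0.742% and 0.796% of all tested genes were called. At an unadjusted p under 0.05 there were 4 members in WT and 2 in KO cells, where 9.46% and 7.78% of all genes had one. DESeq2 called 2 in WT cells, Hspa5 and Dnajc3, and 1 in KO cells, Hspa5, all higher, where it called 0.890% and 0.594% of all genes higher. The block called Hspa5 and Dnajc3 higher and Trib3 lower in WT cells, and Hspa5 higher and Trib3 lower in KO cells. Of all genes the block called 2.73% higher and 3.64% lower in WT cells, and 1.41% and 3.02% in KO cells. Member medians were 0.05 in both genotypes.

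Hspa5 is given first. From the values given above for BiP, all 3 stretched libraries were above all 3 static libraries in each genotype. The log2 fold change was 0.25 ± 0.08 in WT cells (FDR 0.231) and 0.30 ± 0.08 in KO cells (FDR 0.149). With the block the FDR was 0.0162 and 0.00635, and over all alternatives it ran from 0.0162 to 0.591 in WT and from 0.00314 to 0.462 in KO cells.

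Dnajc3, the BiP cochaperone also known as p58IPK, which inhibits eIF2 kinases, was also higher in every stretched library of both genotypes. It read 60.3, 70.1 and 60.5 CPM in WT static and 77.2, 79.9 and 78.9 CPM in WT stretched cells, and 61.9, 59.8 and 67.3 against 68.4, 68.5 and 73.2 CPM in KO cells, with no overlap in either. The log2 fold change was 0.31 ± 0.09 in WT (FDR 0.184, with the block 0.0208) and 0.15 ± 0.09 in KO cells (FDR 0.803). Over the alternatives the WT value ran from FDR 0.0208 to 0.537. In KO cells Dnajb9, another BiP cochaperone, had 0.23 ± 0.11 (FDR 0.700) and Sesn2 -0.18 ± 0.12 (FDR 0.891). Trib3 was lower in the stretched libraries, at -0.47 ± 0.18 in WT (FDR 0.400, with the block 0.00676) and -0.51 ± 0.18 in KO cells (FDR 0.420, with the block 0.00573). Over the alternatives its FDR ran from 0.00676 to 0.795 in WT and from 0.00573 to 0.839 in KO cells. In all, 3 members stood apart in WT cells (2 higher and 1 lower) and 5 in KO cells (3 and 2). Of all genes, 6.92% in WT and 5.38% in KO cells were apart and higher with stretch, and 8.49% and 7.14% apart and lower.

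The remaining members showed no call with stretch in either fit. Atf4 had 0.15 ± 0.13 in WT and 0.13 ± 0.13 in KO cells, Ddit3 -0.05 ± 0.20 and 0.01 ± 0.20, and Xbp1 0.15 ± 0.14 and 0.14 ± 0.14. The enzyme genes, apart from Aldh18a1, lay between -0.05 and 0.16 in WT and between -0.12 and 0.11 in KO cells. None of the other ATF4, eIF2 and ER lists had a called gene with stretch in the fit without the block, at unadjusted counts under 0.05 of up to 4 of 18 in WT and 5 of 18 in KO cells for the mixed ATF4 and CHOP list. With the block the most called in any of these lists were 3 of 18 in WT cells, for the mixed list and for the further degradation genes, and 4 of 10 transporters in KO cells. How long the cells were stretched is not given, so an early or passing response was not tested.

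**Figure D5:**
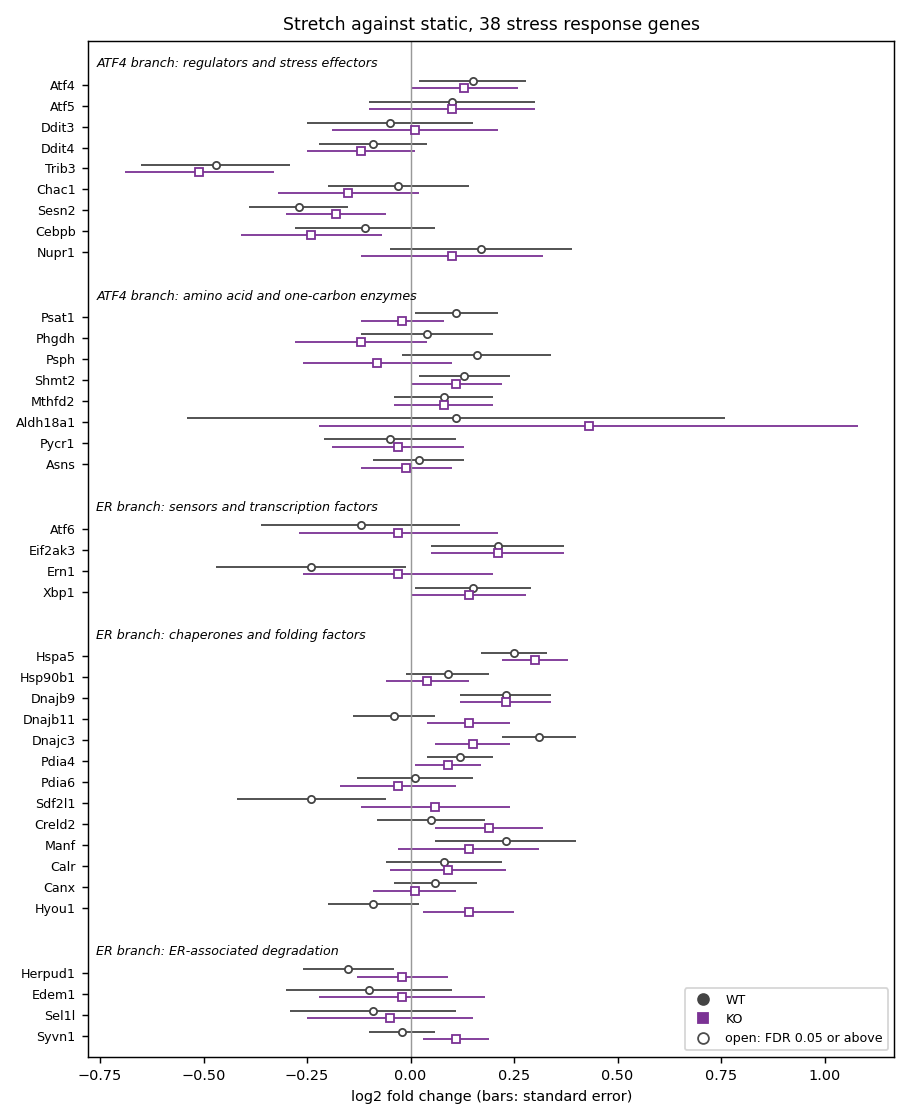
Log2 fold change of stretched against static cells (x axis, bars are standard errors) for the 38 genes in WT (circles) and KO cells (squares), all open because no FDR was under 0.05. Most points lie within 0.3 of 0, with Trib3 at -0.47 and -0.51, Hspa5 at 0.25 and 0.30, and Aldh18a1 with the widest bars.

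The difference between the genotypes did not shift detectably with stretch. The interaction of genotype and stretch, that is the KO difference under stretch minus the static one, called 0 members and 0 genes (0%) of 14825 in edgeR. No member had an unadjusted p under 0.05, and the lowest member FDR was 1.00. DESeq2 called 9 genes (0.0607%) and the block 2 (0.0135%), none of them members. Member interaction values ran from -0.24 to 0.32 on the log2 scale and their standard errors from 0.11 to 0.34 without Aldh18a1. In the authors' deposited table, at its own FDR under 0.05, 2 members were higher and 11 lower in KO cells in static culture, and 2 and 12 under stretch. The same table has 0 members changed by stretch in either genotype. The share of all genes past the authors' FDR was not counted, so these member counts have no background beside them.

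Markers of other cell types were read beside these results. The smooth muscle list of 10 genes summed to 4430 to 6133 CPM in WT and 3009 to 4485 CPM in KO libraries, with Acta2 and Tagln most abundant. In static culture 3 of its genes were higher in KO cells and 2 lower: Acta2 averaged 2168 CPM in WT and 1255 CPM in KO libraries, while Myocd averaged 2.96 and 13.7 CPM and Mylk 5.73 and 10.6 CPM. Under stretch 1 was higher and 4 lower, among the lower Actg2 at -1.43 ± 0.23, Acta2 at -1.31 ± 0.12 and Lmod1 at -1.18 ± 0.08 (log2, SE). Of all tested genes 12.1% were higher and 8.66% lower in static culture, and 11.9% and 8.73% under stretch. The fibroblast list of 8 genes summed to 453 to 577 CPM in WT and 1059 to 1519 CPM in KO libraries. In static culture Col14a1 averaged 32.1 CPM in WT and 685 CPM in KO libraries and Lum 236 and 444 CPM, while Pdgfra averaged 51.8 and 33.7 CPM, so that 2 of 7 tested were higher and 1 lower. Dcn and Cd34 were under 1 CPM in every library. Leukocyte markers summed to 5.37 to 12.2 CPM and endothelial ones to 30.7 to 43.4 CPM. Mesothelial and epithelial markers summed to 30.2 to 39.7 CPM in WT and 43.4 to 71.0 CPM in KO libraries. Of 8 endothelial markers listed, 7 were found in the deposited table, and Pecam1 was not found under that symbol. No marker that was found was at 0 in all libraries. The part of the fibroblast and mesothelial genes in the stress gene differences was not tested.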

How the data were processed

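Reads of 12 poly(A) RNA libraries were mapped to Rnor_6.0 and counted per gene with CLC Genomics Workbench 12.0, per the labels' protocols; trimming, strand setting and annotation release are not given in the sources used here. The deposited exon counts are whole reads, and per the file headers the total includes reads mapped to several places. The deposited RPKM values are the authors' exon reads scaled by exon length and by mapped reads. The deposited table also gives the authors' fold change, a signed score, and the authors' FDR, a p-value column of the CLC EDGE test.

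Total exon counts were fitted in edgeR 4.0.16 (R 4.3.3) with filterByExpr at a minimum count of 10, TMM scaling, 1 mean for each of 4 groups, quasi-likelihood F tests and Benjamini-Hochberg adjustment over 14825 genes. The fits were tested on simulated data first. Alternatives were a block for the library number, DESeq2 1.42.0, RLE and upper-quartile scaling, no filter, unique reads, libraries numbered 1 and 2 only, and each library left out. Deviations from group means of same-numbered libraries correlated at r 0.181 to 0.581 for numbers 1 and 3 and 0.135 to 0.280 for number 2, across genes, against -0.427 to 0.308 between different numbers. Every same-number r exceeded 0.1, but those of numbers 1 and 2 lay within the range of different numbers, and number 3 alone stood clear of it. The numbers, taken from the sample titles, were used in the block and in comparisons within a number. The main fit did not use them. No pair of libraries was identical. Intron counts, deposited in the same table, were tested alike. Promoter sequences come from RefSeq, build GRCr8.

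Every library is printed for members called in a comparison and for Xbp1 and Hspa5, and other lists name up to 3 called genes of largest change. The members and lists were chosen with earlier results of these data known.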

Additional observations from a re-analysis of the deposited data

How the results depend on the processing

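Of 589 checks of called members (31 calls under 19 alternatives), 521 stayed past the threshold with the same direction, 68 lost the call and 0 reversed. Upper-quartile scaling and no filter on low counts each lost Atf5 in static culture and Atf5, Ddit3, Phgdh, Psph and Herpud1 under stretch, which left 9 members lower under stretch instead of 14. On exon and intron reads, the library number as a block changed no other call of a member than those given with the results, which were all gains. All genes changed in the main fit numbered 3085 (KO against WT, static), 3056 (stretch), 110 (stretch in WT), 118 (stretch in KO) and 0 (interaction). With the block they were 5569, 5531, 944, 656 and 2, with libraries numbered 1 and 2 only 4739, 4985, 528, 439 and 3. DESeq2 gave 357, 294 and 9 for the last 3, and no filter gave 76 for stretch in KO. Members lower in KO static cells were 21 with the block and 20 with libraries numbered 1 and 2 only. Members changed by stretch, 0 in the main fit, were with the block 2 higher and 1 lower in WT and 1 higher and 1 lower in KO cells, with DESeq2 2 higher and 1 higher, and with libraries numbered 1 and 2 only 1 higher in KO cells. The cause of these shifts was not tested. With 1 library left out, genes changed ranged from 2439 to 3226, 2350 to 3192, 23 to 118 and 24 to 122 in the order above. Members lower ranged from 9 to 14 in static culture (9 without WT static library 1 or KO static library 2) and from 8 (without KO stretched library 1 or 2) to 15 under stretch, where members higher ranged from 1 to 2. Static calls of 10 members and stretch calls of 9 held without any single library. Scaling moved the median of all genes by at most 0.03 on the log2 scale. Depth limits the least read members most, such as Pycr1 with 259 and Sdf2l1 with 268 reads in the lowest library.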

Other observations

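The stress genes also differed between libraries by their number, a comparison the study's design does not make. They were compared in a separate edgeR fit of the group means and a term for the libraries numbered 3. There, 20 of the 38 members were higher and 8 lower in those libraries than in those numbered 1 and 2, at FDR under 0.05. Of all tested genes 24.1% were higher and 26.0% lower. Of the 17 ATF4 branch genes 13 were higher and none lower, among them Nupr1 at 0.48 ± 0.06 (log2 difference, SE), Ddit3 at 0.42 ± 0.07, Atf5 and Psph at 0.39 ± 0.07 and 0.39 ± 0.05, and Atf4 at 0.27 ± 0.04. In the ER branch the sensor genes Atf6 at -0.57 ± 0.05, Ern1 at -0.45 ± 0.10 and Eif2ak3 at -0.29 ± 0.07 were lower. So were Sel1l at -0.47 ± 0.05 and Edem1 at -0.46 ± 0.06, while Manf at 0.34 ± 0.06 and Calr at 0.29 ± 0.04 were higher. The lower share of intron reads in the same libraries moved with these values, and its part in them was not tested.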
